A study of Homo sapiens with 8 samples.

Results

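The lncRNA features with long loci are those whose locus, taken as end minus start on build hg19, spans 10000 bp or more. They number 894 of the 1321 features in the table of long non-coding RNAs, and the other 427 features have shorter loci. RNA was measured by sequencing in hTERT-RPE1 cells, an established human line of retinal pigment epithelium made immortal by telomerase, in 4 groups of 2 libraries. All groups were treated with 2 mM thymidine for 24 h, which stalls DNA replication. Interphase cells were taken at that point, while mitotic cells were released for 6 h and then kept overnight in S-Trityl-L-cysteine (STLC), which blocks the kinesin Eg5 and holds cells in mitosis. In each phase, 1 group was made without immunoprecipitation (no IP) and 1 from RNA immunoprecipitated with the anti-hnRNP U antibody [3G6] (IP). The groups are therefore interphase without IP, interphase IP, mitosis without IP and mitosis IP. Mitosis and interphase differ in drug history as well as in phase, and these cannot be told apart. No IP with another antibody was used here, so RNA bound by hnRNP U and RNA held on the beads in other ways cannot be told apart.

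hnRNP U, also called SAF-A, is an abundant nuclear protein that binds RNA and DNA and is known for its part in chromosome territory and nuclear matrix organization. Long non-coding RNAs are transcripts without a long open reading frame, and many are kept in the nucleus or on chromatin at low levels. Most nuclear RNA leaves the condensed chromosomes when cells enter mitosis. The locus span used here is the genomic distance a feature covers, introns included, and is not its transcript length. FPKM (fragments scaled by transcript length and by the library's mapped fragments) is already per length, so levels of different features can be compared. The table gives assembly-style identifiers with no gene names, and these are used as given.

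The median locus span of the 894 members was 36026.5 bp, with the middle 50% between 19001 and 85704.8 bp. By span, 246 members covered 10000 to under 20000 bp, 286 covered 20000 to under 50000 bp, 172 covered 50000 to under 100000 bp and 190 covered 100000 bp or more. Chromosomes 1 and 2 held the most members, with 78 and 77. The 3 longest loci, at chr6:126698800-127442848 (744048 bp), chr3:7994491-8653610 (659119 bp) and chr2:58654933-59290901 (635968 bp), had low to moderate levels. The first of them stayed between 0.162 and 1.1 FPKM over the 8 libraries, the second between 1.05 and 11.4 FPKM and the third between 1.85 and 11.6 FPKM. On the edge of the rule, the members with the shortest loci were at chr17:38081020-38091020 (10000 bp), chr19:44395956-44405959 (10003 bp) and chr17:43289615-43299619 (10004 bp). The features just outside it were at chr15:93322997-93332988 (9991 bp), chrX:134141853-134151748 (9895 bp) and chr15:40978358-40988181 (9823 bp). Levels on both sides of the edge overlapped: the shortest members ranged from 0.178 to 35.2 FPKM, and the features just outside from 0.671 to 30.2 FPKM. Of the members, 76 share their whole interval with another member, at 35 loci. How the deposited counting treated reads between such members is not given in the sources used here. In the 30 loci with exactly 2 members, both had the same sign of change in 14 to 18 loci, depending on the comparison.

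Levels of the members were spread widely. The mean over 8 libraries was under 1 FPKM for 41 members, from 1 to under 10 FPKM for 350, and 10 FPKM or more for 503 (56.26%). The median of these means was 10.07, 10.75, 20.14 and 18.16 FPKM in the span classes from shortest to longest. Across the 894 members, Spearman's rho between span and mean FPKM was 0.1442, a description over features that share all 8 libraries. Members took 64.44% and 72.1% of the summed FPKM of the lncRNA table in the 2 interphase libraries without IP, and 77.32% and 71.92% in the interphase IP. They took 71.97% and 75.14% in mitosis without IP, and 87.78% and 85.36% in the mitosis IP, above every other library. A single member, XLOC_002583 (chr11:65190244-65278499), held 4.423% to 7.605% of the table's sum in interphase without IP and 53.55% to 62.1% in the mitosis IP. Without it, the share of the members was 59.77% to 70.8% over the 8 libraries, and 67.74% and 68.47% in the mitosis IP. Only interphase without IP replicate 2, at 70.8%, lay above the mitosis IP, and the other libraries reached at most 66.98%. In that 1 library the member at chr12:93477090-93532846 was at 40120.1 FPKM of a table sum of 128583.5 FPKM, against 36.4 FPKM in replicate 1. Shares without both members were not computed.

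The 3 members with the highest mean level differed in how well their replicates matched. XLOC_002583 is described with the IP comparisons. The second, at chr12:93477090-93532846, was at 36.4, 3.63, 34.6 and 2.66 FPKM in replicate 1 of interphase without IP, interphase IP, mitosis without IP and mitosis IP. In replicate 2 the same feature was at 40120.1, 1963.7, 19928.2 and 2893.4 FPKM, so replicate 2 lay far above replicate 1 in each group. Its IP level was lower than its level without IP in both pairs and both phases, and it was not called in any comparison. The fit does not use replicate numbers, so the gap between replicates counts as spread within each group. The missing call is therefore not evidence that this feature did not change. The third highest shares its interval with XLOC_002583. It was at 857 and 897 FPKM in interphase without IP, 2933.3 and 2264.1 in the interphase IP, 1234.8 and 1433.8 in mitosis without IP, and 2377.4 and 2580.6 in the mitosis IP.

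Replicates were less often within 2-fold of each other for members at low levels, while the SD did not follow level in every group. Across the members, the SD of the log2 ratio of replicate 1 to replicate 2 was 1.414 in interphase without IP, 1.258 in the interphase IP, 1.357 in mitosis without IP and 1.333 in the mitosis IP. Replicate 1 was the lower library by the median, with log2 ratios of -0.10, -0.22, -0.16 and -0.22 in the same order. The replicates lay within 2-fold of each other for 68.34% to 78.19% of the members. That share was 77.14% to 80.32% among the 503 members at 10 FPKM or more, and 48.78% to 65.85% among the 41 members under 1 FPKM. The SD was 1.73 under 1 FPKM and 1.327 at 10 FPKM or more in interphase without IP, 1.421 and 1.354 in the interphase IP, 1.345 and 1.359 in mitosis without IP, and 1.237 and 1.334 in the mitosis IP. In 30 of the 894 members (3.356%) the replicates were more than 4-fold apart in the same direction in all 4 groups, with replicate 2 the higher in 26 of them. The same held for 20 of the 427 shorter features (4.684%). Sequencing depth in fragments is unknown for all 8 libraries.

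The gene table, with 13471 genes, served to check the labels. All 10 mRNAs of the mitosis list were higher in mitosis than in interphase without IP in both replicates, with summed levels of 278.4 to 285.3 FPKM in interphase and 901.7 to 945.5 FPKM in mitosis. Of 10 mRNAs of the G1/S and S phase list, 8 were lower in mitosis in both replicates. Of 9 retinal pigment epithelium genes, 4 were listed, at 24.55 to 25.27 FPKM summed in interphase without IP, and RPE65, RLBP1, BEST1, TYR and SERPINF1 were not listed. None of 4 leukocyte genes was listed, and KDR was the sole endothelial gene, at no more than 0.1993 FPKM. Of the simple epithelium list 2 of 4 genes were listed, at 114.3 to 122.3 FPKM summed in interphase without IP, and of the mesenchymal list 3 of 4, at 1993 to 2176 FPKM. The mRNA of HNRNPU itself was at 31.7 and 32.4 FPKM in interphase without IP and at 46.2 and 47.2 FPKM in mitosis without IP.

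The first comparison asked which members were enriched or depleted in the hnRNP U IP of interphase cells. In the IP, limma called 64 members higher and 72 lower, which is 15.21% of the members, beside 16.4% of all 1321 features. By direction the background was 7.65% higher and 8.78% lower, against 7.159% and 8.054% of the members, so the members were called at close to the rate of the table. Of the 427 shorter features, 37 were higher and 44 lower (18.97%). A call is an adjusted p below 0.05 (limma, Benjamini-Hochberg over all 1321 features), and each fold change is a difference of log2(FPKM + 1) values, a scale on which low features change less than in FPKM. Both replicate pairs had the sign of the call in all 136 called members. The pair differences come from the same libraries as the call and average to its fold change. Their agreement is therefore not separate support. Nothing in the labels says that replicates came from separate cultures, so p-values measure the spread between these libraries. The fit does not use replicate numbers, so gaps shared by same-numbered libraries are part of that spread. With replicate number as a block, 104 members were called higher and 121 lower, beside 156 and 197 of all features.

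Among members enriched in the interphase IP, XLOC_007828 (chr2:18478993-18578962) had the largest change on the log2(FPKM + 1) scale. It was at 1.35 and 1.16 FPKM without IP and at 14 and 15.1 FPKM in the IP. The groups did not overlap, and the log2 fold change was 2.79 ± 0.46 (SE, limma adjusted p = 0.0144). In mitosis its levels of 5.05 and 1.42 FPKM without IP and 2.9 and 2.58 FPKM in the IP overlapped. XLOC_002583 was at 5882 and 5687.5 FPKM without IP and at 34286.5 and 31324.6 FPKM in the IP. Its log2 fold change was 2.50 ± 0.15 (SE, limma adjusted p = 0.00119), with 2.54 and 2.46 in the replicate pairs. Quantile normalization took this member out of the calls, at a log2 fold change of 1.44 and a limma adjusted p of 0.304. Over all its alternatives the adjusted p of this member ranged from 1.12e-05 to 0.304.

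Further enriched members, given by locus, were at chr12:16573560-16590727 and chr18:45346795-45357852. The first was at 4.42 and 2.75 FPKM without IP and 23.9 and 23.8 FPKM in the IP, a log2 fold change of 2.46 ± 0.48 (SE, limma adjusted p = 0.0223). The second was at 9.29 and 12.4 FPKM without IP and 56 and 71.1 FPKM in the IP, a log2 fold change of 2.45 ± 0.29 (SE, limma adjusted p = 0.0061). In each case both IP libraries lay above both libraries without IP.

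Among members depleted from the interphase IP, XLOC_008823 (chr2:110969062-110980517) was at 974 and 965 FPKM without IP and at 58.3 and 37.9 FPKM in the IP. Its log2 fold change was -4.34 ± 0.25 (SE, limma adjusted p = 0.00119). On this scale no other called change of a member was larger in size. XLOC_000834 (chr1:1533265-1545864) was at 43.1 and 54.9 FPKM without IP and at 1.02 and 5.28 FPKM in the IP, a log2 fold change of -3.80 ± 0.56 (SE, limma adjusted p = 0.0106). On the log2 scale its 2 IP libraries lay further apart than its 2 libraries without IP. Other depleted members were at chr20:48779680-48793305 (log2 fold change -3.13), chr11:18609854-18632195 (-3.09) and chr9:34662749-34682421 (-3.09). The one at chr11 was at 59.3 and 72.7 FPKM without IP and at 5.84 and 7.92 FPKM in the interphase IP. In mitosis the same member was at 63.2 and 33.3 FPKM without IP and 46.4 and 36.7 FPKM in the IP, levels that overlapped.

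**Figure D1:**
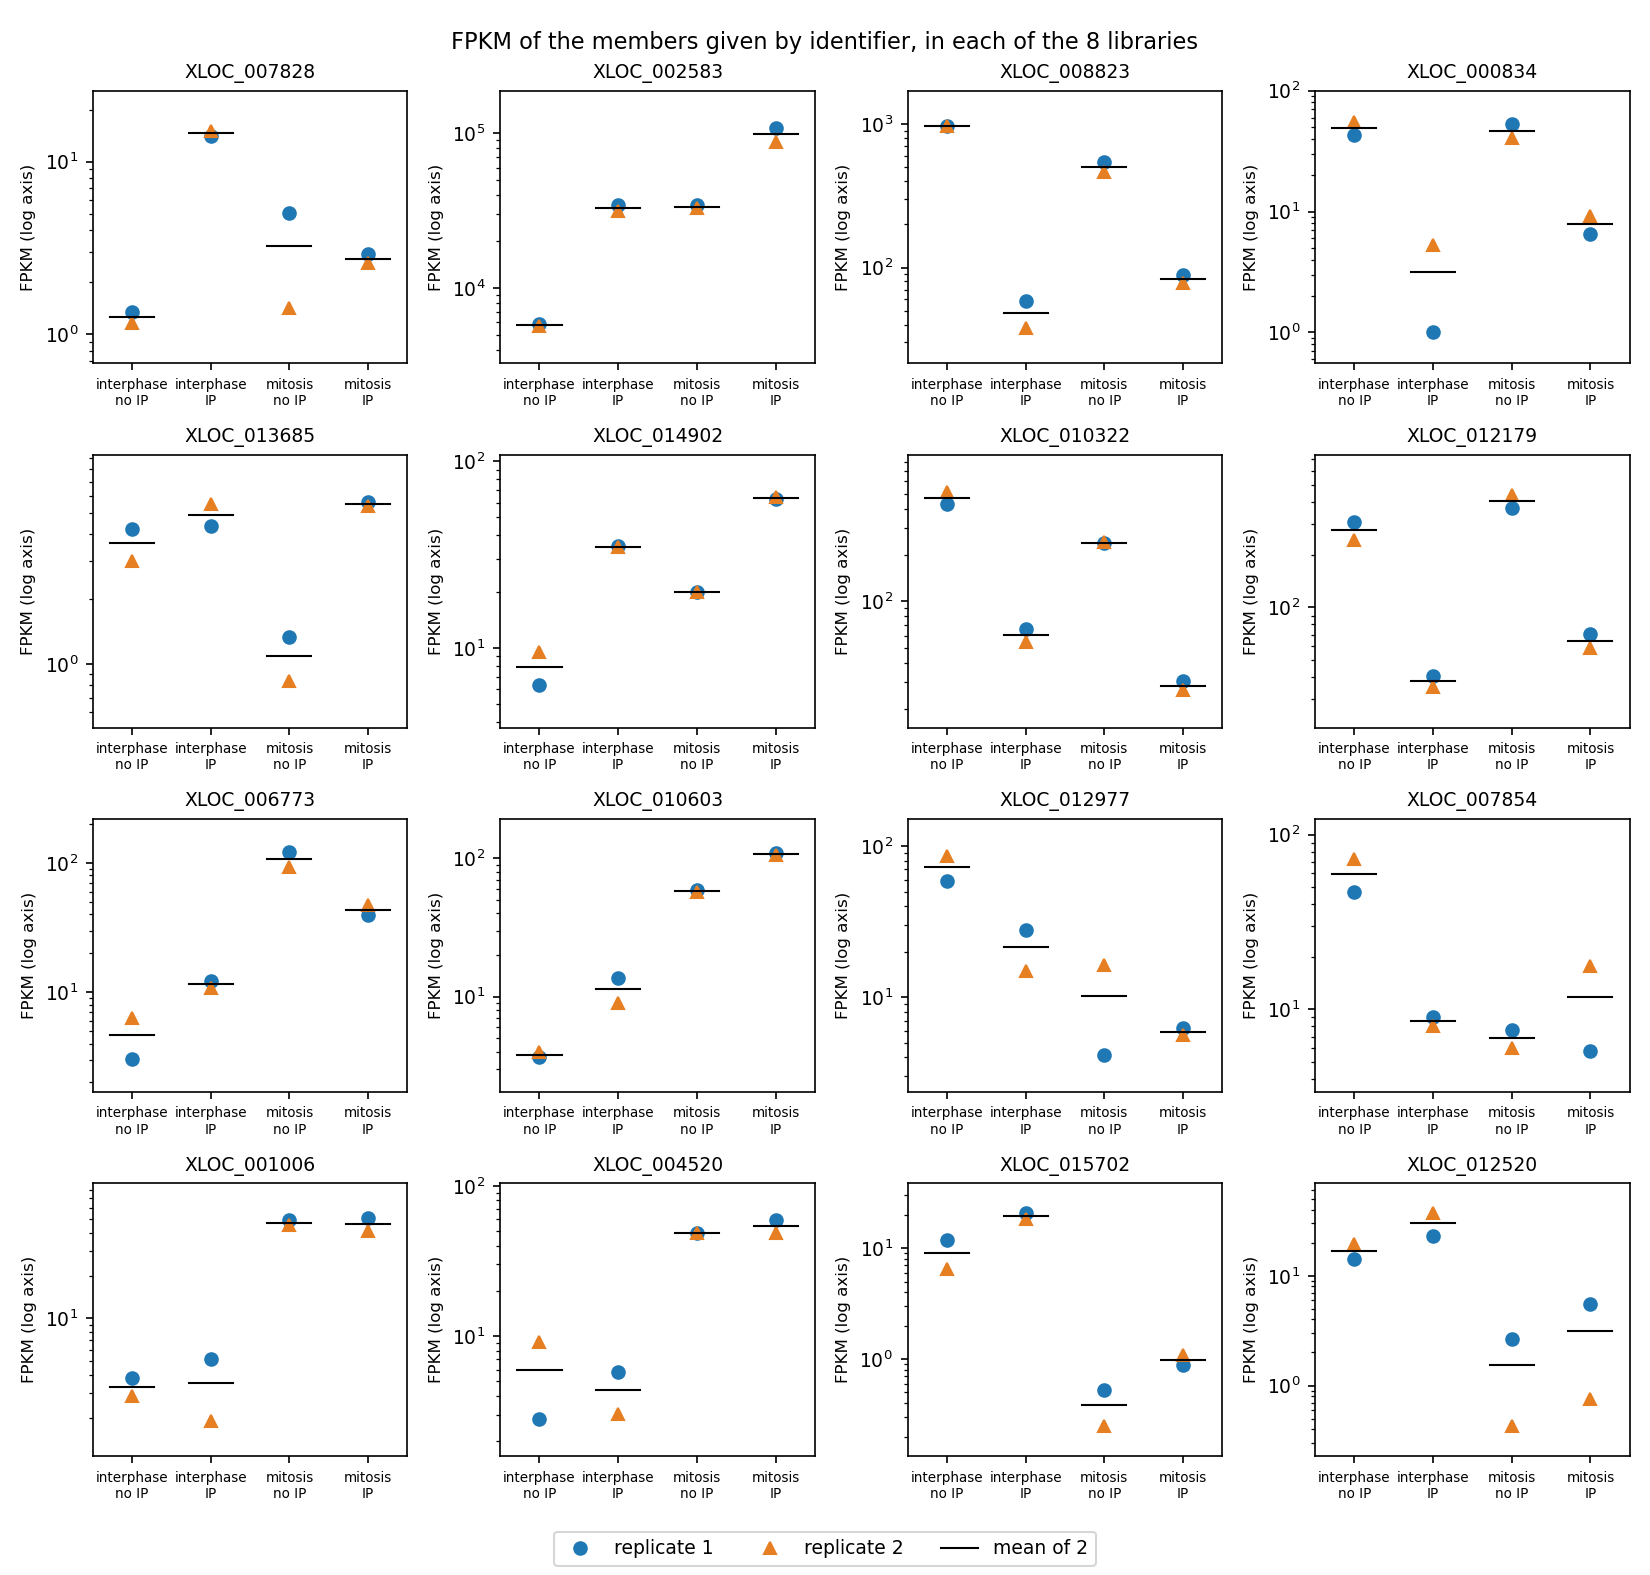
FPKM on log axes in each of the 8 libraries for the 16 members given by identifier, 1 panel per member. Circles are replicate 1, triangles replicate 2 and lines the mean of 2. The 2 libraries of a group lie close together in most panels, for example for XLOC_002583 and XLOC_008823, while XLOC_012520 and XLOC_007828 show wide replicate gaps in mitosis without IP.

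The called changes in interphase ran from 0.71 to 2.79 for the 64 higher members (median 1.45) and from -4.34 to -0.73 for the 72 lower members (median -1.84). Over all 894 members the median log2 fold change was 0.04, with -0.02 in pair 1 and 0.07 in pair 2. That of the shorter features was -0.13 and that of all features -0.02. Among the members, none of the 41 under 1 FPKM was called, 18 of the 350 from 1 to 10 FPKM (5.143%), and 118 of the 503 at 10 FPKM or more (23.46%). Shares by level were not computed over all features, so this is not shown to be particular to the members. The log2(FPKM + 1) scale also keeps changes under 1 FPKM small. Their 10% and 90% points were -0.41 and 0.54, while the smallest called change was 0.71 in size. By span, 18 higher (7.317%) and 23 lower members (9.35%) covered 10000 to under 20000 bp. In the class of 20000 to under 50000 bp there were 16 (5.594%) and 29 (10.14%). The class of 50000 to under 100000 bp held 23 higher (13.37%) and 7 lower members (4.07%) of 172. That of 100000 bp or more held 7 (3.684%) and 13 (6.842%) of 190. Over all features 7.65% were higher and 8.78% lower. The median log2 fold change was -0.02, -0.02, 0.21 and 0.05 in these classes, and whether the classes differ was not tested.

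Centring each library on its median turned the split of the interphase calls from 64 higher and 72 lower to 73 and 53, and quantile normalization gave 72 and 49. The share of higher calls was 47.06% as deposited, 57.94% after centring and 59.5% after quantile normalization. Over all features the counts went from 101 higher and 116 lower to 115 and 88 with centring and to 110 and 80 with quantile normalization. Fits without 1 library lowered the number of calls over all features as well as among the members. Leaving out any 1 library lowered the count of called members from 136 to 34 without replicate 1 and 23 without replicate 2 of the libraries without IP, and to 40 without replicate 1 and 40 without replicate 2 of the IP. XLOC_002583, XLOC_008823 and the members at chr18:45346795-45357852 and chr11:18609854-18632195 stayed called in all 4 of these fits. XLOC_007828 and the member at chr12:16573560-16590727 were called in 0 of the 4, with adjusted p up to 0.0753 and 0.113, and XLOC_000834 in 2 of the 4. The members at chr20:48779680-48793305 and chr9:34662749-34682421 were called in 1 of the 4 each.

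In mitosis fewer members passed the same test. In the IP, 12 members were called higher and 20 lower by limma (3.579%), beside 4.01% of all features (1.21% higher and 2.8% lower). Of the shorter features, 4 were higher and 17 lower (4.918%). At an unadjusted limma p below 0.05 there were 181 members, against 264 in interphase. Over all 1321 features these counts were 288 in mitosis and 425 in interphase. The lower count in mitosis was therefore not particular to the members. The median log2 fold change of the members was 0.07, with 0.06 in pair 1 and 0.08 in pair 2, against -0.05 for shorter features and 0.04 for all features.

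XLOC_013685 (chr6:114373748-114397445) had the largest enrichment in the mitosis IP on the log2(FPKM + 1) scale. It was at 1.34 and 0.842 FPKM without IP and at 5.67 and 5.43 FPKM in the IP, a log2 fold change of 1.66 ± 0.31 (SE, limma adjusted p = 0.0382). In interphase its levels were closer, at 4.24 and 3.01 FPKM without IP and 4.35 and 5.52 FPKM in the IP. XLOC_014902 (chr7:19015829-19095989) was at 19.9 FPKM in both mitosis libraries without IP and at 62.3 and 64.2 FPKM in the mitosis IP, a log2 fold change of 1.62 ± 0.27 (SE, limma adjusted p = 0.0322). In interphase this member was at 6.3 and 9.49 FPKM without IP and 35.3 and 34.5 FPKM in the IP, where it was called too. XLOC_002583 was at 34153.6 and 32797.5 FPKM in mitosis without IP and at 108398 and 87650.1 FPKM in the mitosis IP, a log2 fold change of 1.54 ± 0.15 (SE, limma adjusted p = 0.00958). Quantile normalization sets this difference to 0, since the member is the highest of the table in all 4 libraries compared. The member at chr7:130565750-130797235, the longest of those enriched, covers 231485 bp and was at 111 and 105 FPKM without IP and 321 and 298 FPKM in the IP (log2 fold change 1.51). A second member with the same interval was at 894 and 769.9 FPKM without IP and 2186.5 and 1914.5 FPKM in the IP.

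Among members depleted from the mitosis IP, XLOC_010322 (chr22:27611068-27622760) was at 239 and 241 FPKM without IP and at 30.4 and 26.4 FPKM in the IP. Its log2 fold change was -3.04 ± 0.21 (SE, limma adjusted p = 0.00552), and in interphase it went from 429 and 514 FPKM to 66 and 54.5 FPKM. XLOC_012179 (chr4:115233101-115286264) was at 369 and 435 FPKM without IP and at 70.8 and 58.8 FPKM in the IP, a log2 fold change of -2.62 ± 0.22 (SE, limma adjusted p = 0.00958). The member at chr2:110969062-110980517, which led the depleted members in interphase, was at 544 and 463 FPKM without IP and 88.9 and 77.7 FPKM in the mitosis IP (log2 fold change -2.58). Those at chr18:33754306-33785463 (-2.52) and chr19:56985140-57006957 (-2.44) followed. None of these groups overlapped.

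By span, 4 higher (1.626%) and 5 lower members (2.033%) in mitosis covered 10000 to under 20000 bp. Of the next class, 20000 to under 50000 bp, 3 (1.049%) and 10 (3.497%) were called. For 50000 to under 100000 bp the counts were 3 and 3 (1.744% each), and for 100000 bp or more 2 and 2 (1.053% each). Over all features 1.21% were higher and 2.8% lower. In these classes the median log2 fold change was -0.04, 0.02, 0.22 and 0.16. In the class of 50000 to under 100000 bp the median was 0.23 and 0.24 in the 2 interphase pairs and 0.25 in each mitosis pair, the highest of the 4 classes in each pair. The difference between classes was not tested. No member under 1 FPKM was called in mitosis, and 4 of 350 from 1 to 10 FPKM and 28 of 503 at 10 FPKM or more were. Here too, shares by level were not computed over all features.

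**Figure D2:**
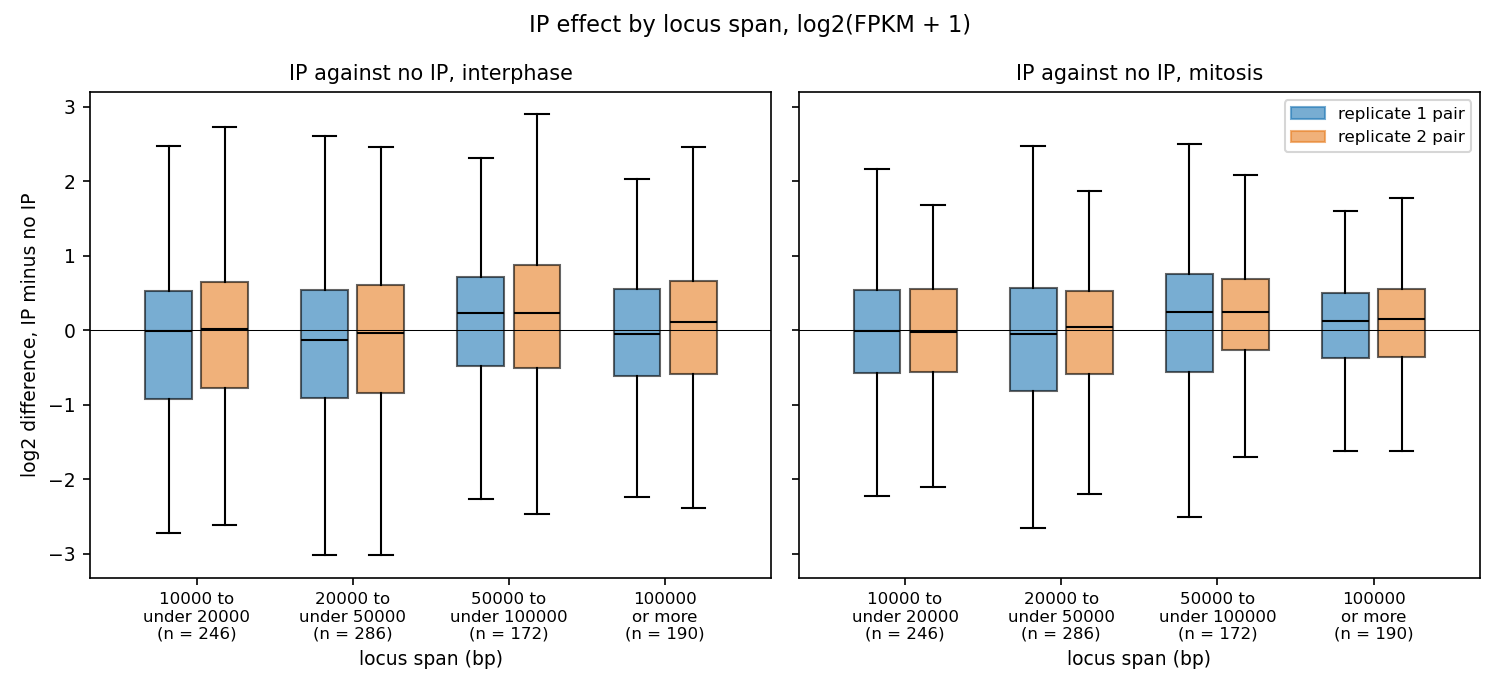
Log2 difference of IP minus no IP by class of locus span, in interphase (left) and mitosis (right), on the log2(FPKM + 1) scale. Boxes give the median and quartiles of the members in the replicate 1 pair (blue) and the replicate 2 pair (orange), whiskers reach to the last member within 1.5 box heights, and members beyond them are not drawn. The boxes of all classes overlap 0, and the medians of the class of 50000 to under 100000 bp lie between 0.23 and 0.25.

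The mitosis calls rested on all 4 libraries. Without either library without IP, or without replicate 1 of the IP, no member was called, and without replicate 2 of the IP 2 were called. Quantile normalization left 1 called member, at chr22:27611068-27622760, and centring left 7 higher and 14 lower. The share of higher calls was 37.5% as deposited, 33.33% after centring and 0% of the 1 call after quantile normalization. Over all features centring left 10 higher and 30 lower, and quantile normalization 0 and 3. Calls over all features were also lost in the fits without 1 library.

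**Figure D3:**
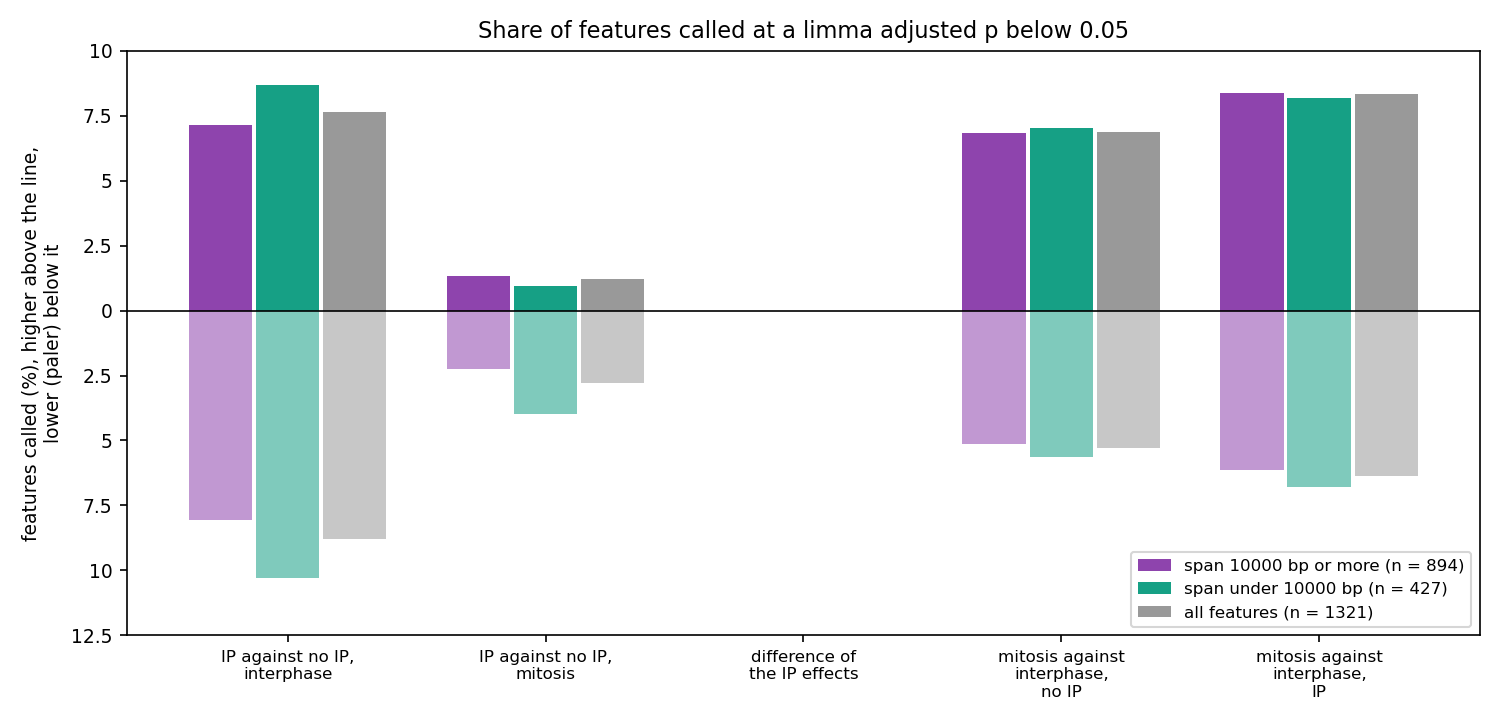
Percent of features called at a limma adjusted p below 0.05 in each of the 5 comparisons, with calls higher above the line and calls lower, in paler bars, below it. Bars are the 894 members, the 427 shorter features and all 1321 features. The members lie close to all features in each comparison. No feature was called for the difference of the IP effects in this fit, which has no replicate block.

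Between the phases, 23 members were called in both IP comparisons, 113 in interphase alone and 9 in mitosis alone. The 6 members higher in both were 9.375% of the 64 higher in interphase and 50% of the 12 higher in mitosis. The 17 lower in both were 23.61% of the 72 and 85% of the 20. Over all 1321 features, the 10 higher in both were 9.901% of those higher in interphase and 62.5% of those higher in mitosis. The 32 features lower in both were 27.59% and 86.49% of those lower in each phase. No member was called higher in one phase and lower in the other. Those higher in both included XLOC_002583, XLOC_014902 and the members at chr18:45346795-45357852 and chr2:217074539-217084916. The last of these was at 81.8 and 84.5 FPKM without IP and 248 and 291 FPKM in the IP of interphase, and at 67.3 and 62.7 FPKM and 189.7 and 182 FPKM in mitosis. Over the 894 members the 2 IP effects had a Pearson correlation of 0.5657 and a Spearman correlation of 0.4925, given as a description since the members share all libraries. Over all features these correlations were 0.6125 and 0.5584.

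The test of the difference itself, the interaction of IP and phase, called no member and no other feature (0%), and 99 members and 149 of all features had an unadjusted limma p below 0.05. The median difference of the members, mitosis effect minus interphase effect, was 0.05, with 0.08 in pair 1 and 0.01 in pair 2. The median SE of the difference was 0.58. In this fit, a call in one phase and not in the other is therefore not shown to be a difference between phases. The count depended on the fit. With replicate number added as a block, 3 members were called higher and 5 lower for the difference. Over all features the block gave 3 higher and 10 lower. The labels do not say what a shared replicate number means.

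**Figure D4:**
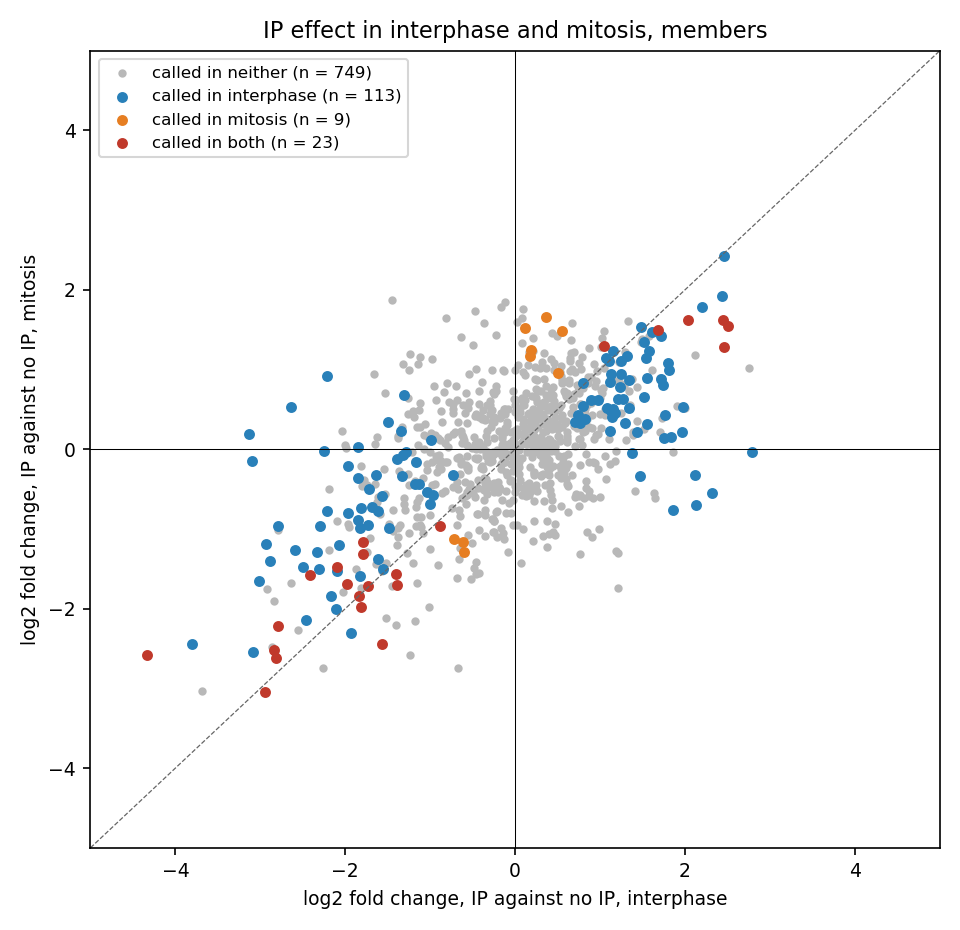
Log2 fold change of IP against no IP in mitosis (vertical) against that in interphase (horizontal) for the 894 members, each point a member. Colours mark the 113 members called in interphase alone, 9 in mitosis alone and 23 in both, grey points are called in neither, and the dashed line is equality. Members called in both phases have the same sign on both axes.

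The authors' deposited table gives IP to total RNA ratios for each replicate, and these were at least 2 in both replicates for 89 members (9.955%) in interphase, beside 10.3% of all features. In the authors' deposited table the ratio was at most 0.5 in both replicates for 131 members (14.65%) in interphase, beside 16.5% of all features, and for 87 shorter features (20.37%). For mitosis the authors' deposited table puts 65 members (7.271%) at 2 or more, beside 7.27% of all features. It puts 74 members (8.277%) at 0.5 or less, beside 10.1% of all features. Of the shorter features, 31 (7.26%) were at 2 or more and 60 (14.05%) at 0.5 or less in mitosis. In interphase 47 shorter features (11.01%) were at 2 or more. A total of 26 members in interphase and 22 in mitosis had, in the authors' deposited table, a ratio of at least 2 in one replicate and at most 0.5 in the other. Of all 1321 features the same held for 35 in interphase and 33 in mitosis.

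**Figure D5:**
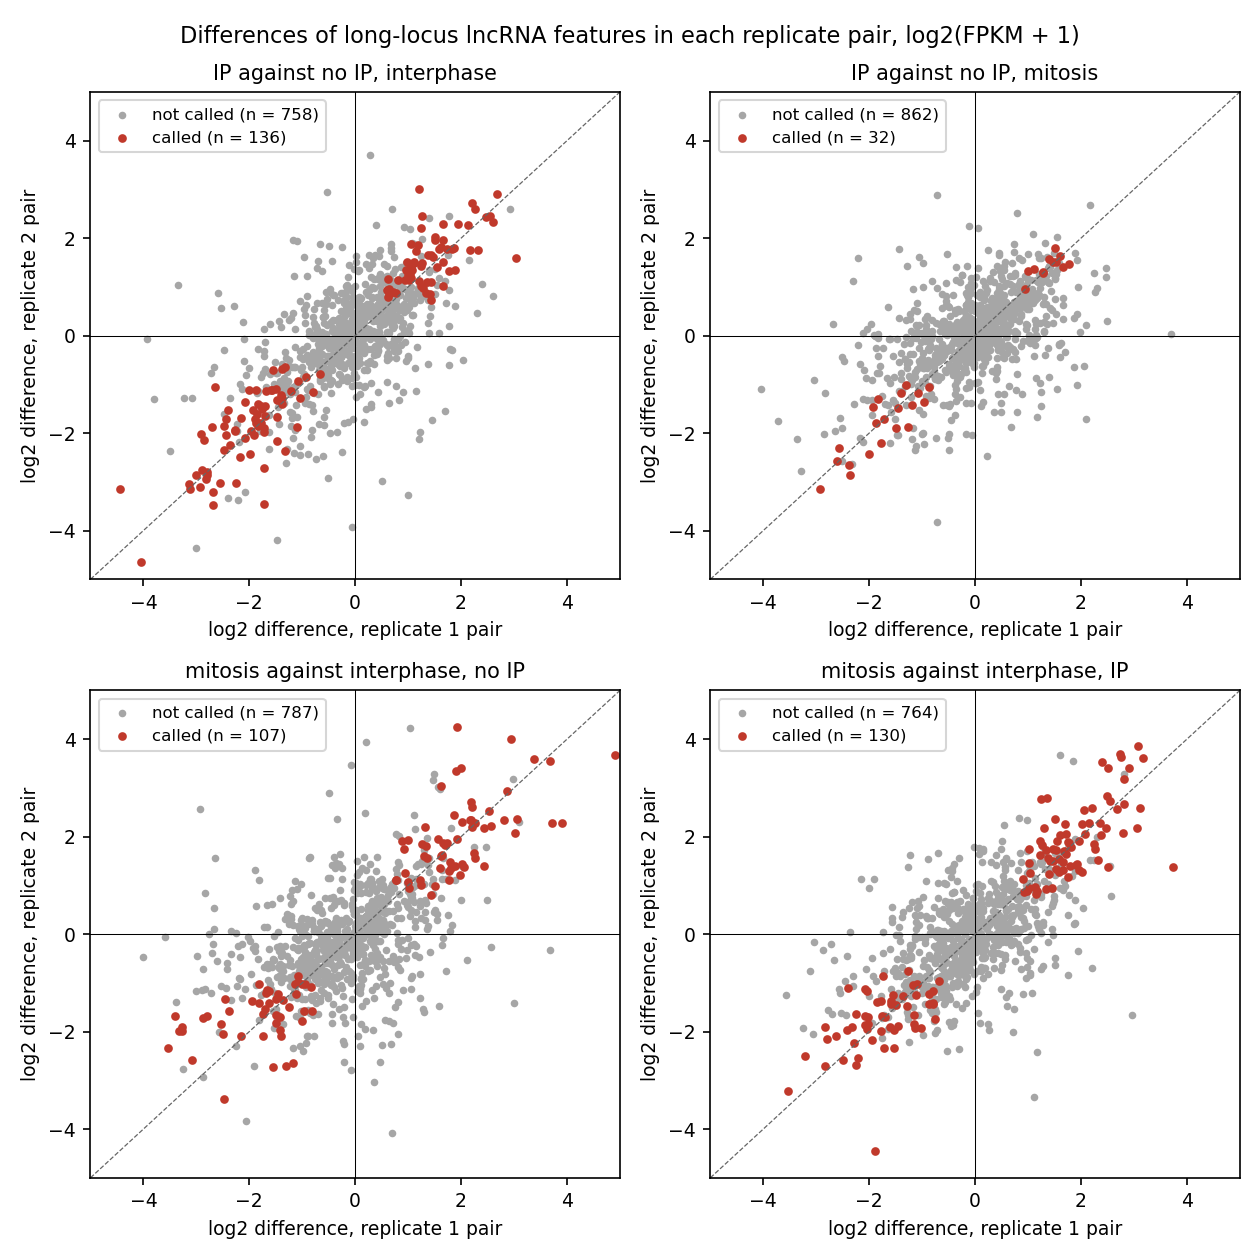
Log2 differences of the 894 members in the replicate 2 pair (vertical) against the replicate 1 pair (horizontal), on the log2(FPKM + 1) scale, for 4 comparisons. Each point is a member, called members are red, and the dashed line is equality. All called members have the same sign in both pairs, which hold the same libraries as the calls and are not separate support for them.

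The next comparison set mitosis against interphase without IP. Limma called 61 members higher and 46 lower in mitosis (11.97%), beside 12.2% of all features (6.89% higher and 5.3% lower). Of the shorter features, 30 were higher and 24 lower (12.65%). The median log2 fold change of the members was -0.18, with -0.17 in pair 1 and -0.14 in pair 2, against -0.13 for shorter features and -0.15 for all features. In bulk libraries, fewer cells with a transcript and less of it per cell cannot be told apart. In the authors' deposited table, the ratio of mitosis to interphase was at least 2 in both replicates for 104 members (11.63%), beside 12.1% of all features. It was at most 0.5 in both for 113 members (12.64%), beside 12.6% of all features. Of the shorter features, 56 (13.11%) and 53 (12.41%) passed these limits.

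XLOC_006773 (chr18:67998067-68019782) rose most on this scale. It was at 3.06 and 6.33 FPKM in interphase and at 122 and 92.7 FPKM in mitosis, a log2 fold change of 4.30 ± 0.36 (SE, limma adjusted p = 0.00341). XLOC_010603 (chr3:63989697-64001922) was at 3.64 and 3.96 FPKM in interphase and at 58.8 and 57.3 FPKM in mitosis, a log2 fold change of 3.62 ± 0.28 (SE, limma adjusted p = 0.00314). Replicates of both phases lay close together for this member. Also higher were those at chr1:39987705-40025354 (log2 fold change 3.49), chr5:115638050-115848076 (3.47) and chrX:149088323-149185875 (3.10). The chr5 locus spans 210026 bp and went from 2.19 and 1.31 FPKM to 23.5 and 36 FPKM.

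XLOC_012977 (chr5:44742422-44813687) fell from 58.5 and 86.5 FPKM in interphase to 4.15 and 16.3 FPKM in mitosis, a log2 fold change of -2.94 ± 0.62 (SE, limma adjusted p = 0.0345). XLOC_007854 (chr2:25194310-25262561) was at 47 and 72.2 FPKM in interphase and at 7.65 and 6.04 FPKM in mitosis, a log2 fold change of -2.93 ± 0.53 (SE, limma adjusted p = 0.0208). Further lower members were at chr8:57406958-57472312 (log2 fold change -2.83), chr1:8920579-8939953 (-2.66) and chr17:59470749-59487145 (-2.63). The order of the lower members depended on the pseudocount: with 0.1 FPKM in place of 1, the chr8 member was at -4.24 and the chr1 member at -3.84, against -3.10 for XLOC_012977. Under that setting the chr1 and chr17 members were no longer called (limma adjusted p = 0.0877 and 0.0806). Some of the lower members had low levels in mitosis: the chr8 member was at 0.523 and 0.25 FPKM and the chr1 member at 0.16 and 2.57 FPKM.

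Fits without 1 library called 17 members without replicate 1 and 16 without replicate 2 of interphase, and 11 without replicate 1 and 15 without replicate 2 of mitosis, against 107 with all libraries. XLOC_006773 and XLOC_010603 stayed called in all 4 of them, XLOC_012977 in 1 and XLOC_007854 in 0, with adjusted p up to 0.153 and 0.11. Of the members given by locus, those on chromosomes 5, X and 8 were called in 2 of the 4 fits, the higher one on chromosome 1 in 1, and those at chr1:8920579-8939953 and chr17:59470749-59487145 in 0. Centring left 61 higher and 27 lower (69.32% higher, against 57.01% as deposited), and quantile normalization 48 and 24 (66.67% higher). Over all features these settings left 90 higher and 42 lower and 78 and 41, from 91 and 70. The fits without 1 library lowered the number of calls over all features too.

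In the IP libraries, limma called 75 members higher and 55 lower in mitosis than in interphase (14.54%), beside 14.7% of all features (8.33% higher and 6.36% lower). Of the shorter features, 35 were higher and 29 lower (14.99%). The median log2 fold change of the members was -0.05, with -0.08 in pair 1 and -0.03 in pair 2. A change between phases in the IP includes any change in the RNA that was available to be precipitated, so levels without IP are given beside those in the IP.

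XLOC_001006 (chr1:39987705-40025354) was at 5.15 and 1.9 FPKM in the interphase IP and at 50.7 and 41.1 FPKM in the mitosis IP, a log2 fold change of 3.46 ± 0.42 (SE, limma adjusted p = 0.00732). Without IP it went from 3.79 and 2.83 FPKM to 48.9 and 45.5 FPKM. XLOC_004520 (chr14:101504984-101544008) was at 5.75 and 3.05 FPKM in the interphase IP and at 59.6 and 48.6 FPKM in the mitosis IP, a log2 fold change of 3.39 ± 0.52 (SE, limma adjusted p = 0.0135). Its levels without IP were 2.79 and 9.16 FPKM in interphase and 48.8 and 48.6 FPKM in mitosis. For both of these members the mitosis levels with and without IP overlapped. The member at chr10:3182880-3204580 (log2 fold change 3.22) was at 2.33 and 0.605 FPKM in the interphase IP and 21.2 and 19.9 FPKM in the mitosis IP. Without IP it was at 3.65 and 5.45 FPKM in interphase and 12.1 and 7.86 FPKM in mitosis. The one at chr3:63989697-64001922, already higher in mitosis without IP, was at 13.6 and 9.04 FPKM and at 108 and 106 FPKM (3.16).

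XLOC_015702 (chr8:57406958-57472312) was at 20.7 and 18.4 FPKM in the interphase IP and at 0.881 and 1.09 FPKM in the mitosis IP, a log2 fold change of -3.37 ± 0.36 (SE, limma adjusted p = 0.00676). Without IP it was lower in mitosis too, as given above. XLOC_012520 (chr5:56690886-56831208) was at 23 and 37.3 FPKM in the interphase IP and at 5.5 and 0.752 FPKM in the mitosis IP, a log2 fold change of -3.17 ± 0.75 (SE, limma adjusted p = 0.039). Its replicate pairs gave -1.89 and -4.45, the widest gap among the members named for this comparison. Without IP its levels were 14.2 and 19.5 FPKM in interphase and 2.65 and 0.428 FPKM in mitosis, so it was lower in mitosis there too. Lower as well were the members at chr14:39218544-39417475 (log2 fold change -2.85), chr12:46773848-47270568 (-2.77) and chr11:86666660-86712096 (-2.53). Without IP the chr14 member was at 14.4 and 20.7 FPKM in interphase and 2.48 and 4.13 FPKM in mitosis, and the chr11 member at 35.8 and 32.5 FPKM and at 16.1 and 13.3 FPKM. The chr12 locus covers 496720 bp, and its member was at 93.9 and 124 FPKM in the interphase IP against 12.3 and 18.3 FPKM in the mitosis IP. Without IP that member was at 38.6 and 21.8 FPKM in interphase and 25.7 and 26.5 FPKM in mitosis, levels that overlapped.

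The calls of this comparison depended on replicate 1 of the mitosis IP, among the members and over all features alike. Without replicate 1 of the mitosis IP no member was called, against 46 without replicate 2 of the mitosis IP, 34 without replicate 1 and 24 without replicate 2 of the interphase IP, and 130 with all libraries. XLOC_001006 and XLOC_015702 stayed called in 3 of these 4 fits, XLOC_004520 in 1 and XLOC_012520 in 0. Those at chr3:63989697-64001922 and chr11:86666660-86712096 were called in 3, that at chr12:46773848-47270568 in 2, and those at chr10:3182880-3204580 and chr14:39218544-39417475 in 1.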

How the data were processed

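The authors deposited FPKM values for each library, per the file headers, in a gene table on hg38 and a lncRNA table on hg19; the submitters' processing notes list TopHat and StringTie, with no role or version. Ratio columns, which the authors deposited beside them, divide FPKM values of libraries with the same replicate number, and recomputing them matched to rounding. Total fragments per library are unknown. Members were selected by locus span, and limma 3.58.1 in R 4.3.3 (lmFit, eBayes with trend) was fitted to log2(FPKM + 1) of all 1321 features and 8 libraries, with 1 coefficient per group, 4 residual degrees of freedom, no filter and Benjamini-Hochberg adjustment. The fit was tested on simulated data. Alternatives were median centring, quantile normalization, pseudocounts of 0.1 and 5, a mean of at least 1 FPKM, a replicate block, a fit of only the groups compared, and leaving out each library. Members were named by a rule: for each comparison, of the called members with like signs in both pairs, the 5 that changed most upward and the 5 that changed most downward (the first 2 by identifier), besides 3 by span, 3 by level and 3 on each side of the span limit. The members and lists were chosen with earlier results of these data known. Of the features the rule selects, 2 are not reported here. No reference of the lncRNA table's build was used, so no gene names or sequences are given.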

Additional observations from a re-analysis of the deposited data

Results flagged for a closer look

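For 5 of the members described in the text the sign of the IP effect was opposite in the phases, in each replicate pair. The test of the difference (limma, interaction of IP and phase) did not pass after adjustment over 1321 features for any of them. XLOC_006773 had log2 differences of IP against no IP of 1.71 and 0.67 in the interphase pairs and -1.60 and -0.96 in the mitosis pairs, a difference of -2.47 (unadjusted p = 0.00256, limma adjusted p = 0.238). Its levels were 12.3 and 10.7 FPKM in the interphase IP and 39.5 and 47.1 FPKM in the mitosis IP. The member at chr12:46773848-47270568 had 1.26 and 2.46 in interphase and -1.01 and -0.52 in mitosis, a difference of -2.62 (unadjusted p = 0.00191, limma adjusted p = 0.238). The member at chr10:3182880-3204580 had -0.48 and -2.01 in interphase and 0.76 and 1.24 in mitosis, a difference of 2.24 (unadjusted p = 0.0127, limma adjusted p = 0.356). The remaining 2 were chosen as examples of wide replicate gaps. That at chr16:34324868-34339331 had -0.24 and -0.29 in interphase and 0.85 and 0.57 in mitosis, a difference of 0.98 (unadjusted p = 0.835, limma adjusted p = 0.971). That at chr6:31162539-31176234 had -0.37 and -0.13 in interphase and 0.07 and 0.61 in mitosis, a difference of 0.59 (unadjusted p = 0.757, limma adjusted p = 0.963). Members not described in the text were not examined for opposite signs.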

How the results depend on the processing

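Counts are of called members, higher and lower. With the replicate block they were 104 and 121 for the interphase IP, 49 and 61 for the mitosis IP, 3 and 5 for the difference of the IP effects, 105 and 105 for mitosis against interphase without IP, and 125 and 108 in the IP. Over all features the block gave, in the same order, 156 and 197, 66 and 110, 3 and 10, 162 and 164, and 174 and 158. Members called for the difference with the block included XLOC_008823, higher, and XLOC_002583, lower (limma adjusted p = 0.0237 and 0.0471, against 0.238 for both without it). The labels do not say what a shared number means, and deviations of same-numbered libraries correlated between groups at 0.4951 to 0.6439 across members. A fit of only the groups compared gave 13 and 29, 0 and 0, 2 and 0 without IP, and 0 and 0 in the IP. Over all features that fit gave 19 and 46, 0 and 0, 2 and 1, and 0 and 0. Centring gave 7 higher for the mitosis IP and 27 lower for mitosis without IP, and quantile normalization gave 0 and 1 for the mitosis IP and 24 lower without IP.

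The median log2 fold change of the members in the interphase IP was 0.18 after centring and 0.15 after quantile normalization, and that of all features moved from -0.02 to 0.13 with centring. In the mitosis IP the median was 0.11 after quantile normalization and 0.041 with a pseudocount of 5. For the difference it was -0.084 after centring and -0.0097 after quantile normalization. For mitosis without IP it was -0.082 and -0.11 under the same settings, -0.22 and -0.13 with pseudocounts of 0.1 and 5, and -0.20 with the filter. In the IP it was -0.083 after centring. Without XLOC_002583 the members' share of the FPKM sum was 61.51% in interphase without IP replicate 1, 64.99% and 61.37% in the interphase IP, 59.77% and 66.98% in mitosis without IP, and 67.74% and 68.47% in the mitosis IP, and it was 70.8% in interphase without IP replicate 2.

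Leaving out each library gave, for the interphase IP, 11 to 18 higher, 12 to 28 lower and a median from -0.10 to 0.13. For the mitosis IP it gave 0 to 0 higher, 0 to 2 lower and -0.058 to 0.19, and for the difference 0 to 0 in both directions and -0.054 to 0.17. For mitosis against interphase it gave 8 to 15 higher, 2 to 7 lower and -0.26 to -0.088 without IP, and 0 to 25, 0 to 21 and -0.20 to 0.073 in the IP. A group reduced to 1 library was assumed to vary like the others. No named member took the opposite sign under any alternative (XLOC_002583 went to 0 in the mitosis IP under quantile normalization), and 9 of 40 named changes kept their call in the fit of only the groups compared. The cause of these shifts was not tested. Of 49 features under 1 FPKM, 34.7% to 57.1%, depending on the library, had a ratio to interphase without IP replicate 1 that matched a ratio of 6 or fewer whole fragments (tolerance 0.2%), and how often chance gives such a match was not tested.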

Other observations

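Of the 30 members whose replicates lay more than 4-fold apart in the same direction in all 4 groups, the examples here were chosen after their values were seen. Replicate 1 was the higher in 4 of them, and 3 of these lie on chromosome 6. That at chr6:32861040-32871817 was at 180 FPKM in replicate 1 and 28.4 FPKM in replicate 2 of interphase without IP, and at 365 and 53.3 FPKM in the interphase IP. That at chr6:30201815-30297934 was at 162 and 20.8 FPKM in interphase without IP and at 511 and 74.6 FPKM in the mitosis IP, and that at chr6:31162539-31176234 at 7.81 and 0.714 FPKM and at 8.5 and 1.48 FPKM. The remaining one, at chr21:9647623-9839968, was at 5329.8 FPKM in replicate 1 and 171 FPKM in replicate 2 of mitosis without IP. Among the 26 with replicate 2 higher, that at chr10:81417188-81595893 was at 0.0987 to 0.523 FPKM in the replicate 1 libraries and at 41.4 to 143 FPKM in those of replicate 2. At chr16:34324868-34339331 the replicate 1 libraries held 0.471 to 2.29 FPKM and those of replicate 2 77.8 to 138 FPKM.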
